A study of Mus musculus with 4 samples.

Results

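Chloride transport in neurons was examined through 9 genes: 3 cation-chloride cotransporters (Slc12a2, Slc12a5, Slc12a7), 2 members of the ClC family (Clcn2, Clcn3), the WNK kinases Wnk1, Wnk2 and Wnk3, and Stk39, the kinase SPAK. They were chosen by gene symbol. All 9 were among the 24100 genes of the count tables, and all 9 were among the 14636 genes kept for testing. Of these, Slc12a7 was kept through its level in the Input alone.

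The libraries came from prefrontal cortex of Crh-IRES-Cre mice, adult and male, each pooled from 5 untreated animals, and every library carried the Cre allele, so there was no Cre-free control among them. In this line Cre is made from the Crh locus, so cells that express or have expressed Crh can be marked. The method was translating ribosome affinity purification (TRAP): tagged ribosomes were captured by antibodies against EGFP, and the RNA on them was sequenced. There were 3 immunopurified libraries (IP 1, IP 2 and IP 3) and 1 library of unpurified tissue RNA (Input), of 14474529 counts for the Input and between 10031072 and 23548375 for IP. The comparison asked which transcripts were more or less abundant on the captured ribosomes than in the tissue. How the EGFP tag was placed in the cells is not given in the sources used here.

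GABA-A receptors are chloride channels, so the direction and size of their current depend on chloride inside the cell. The cotransporter NKCC1 (Slc12a2) brings chloride in with sodium and potassium, whereas KCC2 (Slc12a5), found in neurons, carries it out with potassium, and mature cortical neurons are known for strong KCC2 and weak NKCC1 expression. WNK kinases sense chloride and act through SPAK and its relative OSR1, which phosphorylate both classes of cotransporter, activating NKCC1 and inhibiting the KCC proteins. ClC proteins form a further family: ClC-2 is a chloride channel of the plasma membrane, and ClC-3 is a chloride-proton exchanger of endosomes and synaptic vesicles.

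The libraries were first checked against their labels. Crh rose from 1.32 CPM in tissue RNA to 501, 174 and 193 CPM in IP 1, 2 and 3 (log2 fold 7.77 ± 0.87, SE, adjusted p = 9.66e-05 by edgeR). CPM are counts scaled to the library total, corrected by the TMM factor. Of 12 markers of GABAergic neurons 11 lay above the Input in all 3 IP libraries, and their summed level went from 1164 CPM to between 6409 and 9079 CPM. Of 10 markers of excitatory neurons 7 were lower in each IP library than in the Input. The sum of all 10 was 5358 CPM before purification, while afterwards IP 1, 2 and 3 had 3323, 6337 and 5063 CPM. The full sum was thus lower in IP 1 and IP 3 but higher in IP 2. Camk2a made up more than all others of the list together. From 2902 CPM in tissue RNA, it fell to 2590 CPM in IP 1 but rose to 4976 CPM in IP 2 and 4160 CPM in IP 3. Without Camk2a, the other 9 summed to 2456 CPM in the Input, against 733, 1361 and 903 CPM in IP 1, 2 and 3. Markers of endothelial cells summed to 39.0 CPM before and 158, 517 and 207 CPM after purification (IP 1, 2 and 3). In such bulk libraries, whether a marker level differs through the number of cells of a type or through the RNA obtained per cell cannot be told apart.

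None of the 9 genes was called different between IP and Input. By edgeR's quasi-likelihood test 0 were higher and 0 lower at an adjusted p under 0.05, against 0.410% of all tested genes called higher and 0.0478% called lower. DESeq2 and limma-voom also called 0, and 0 of the 9 had an unadjusted p under 0.05 in edgeR, against 4.43% of all genes. The adjusted p was 1 for each gene. The median log2 fold of the 9 was 0.15, beside 0.083 over all tested genes, with a range from -2.70 (Slc12a7) to 0.89 (Clcn3). In 2 of the 9, Clcn3 and Wnk1, all 3 IP libraries lay above the Input, a pattern held by 19.7% of all genes. In 3 of the 9, Slc12a7, Wnk2 and Stk39, all 3 lay below it, as did 24.1% of all genes. Slc12a7 had to lie below it, having been kept through its Input level alone. With library totals in place of TMM, Clcn3 lay above the Input in 2 and Wnk1 in 1 of the 3 IP libraries.

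**Figure D1:**
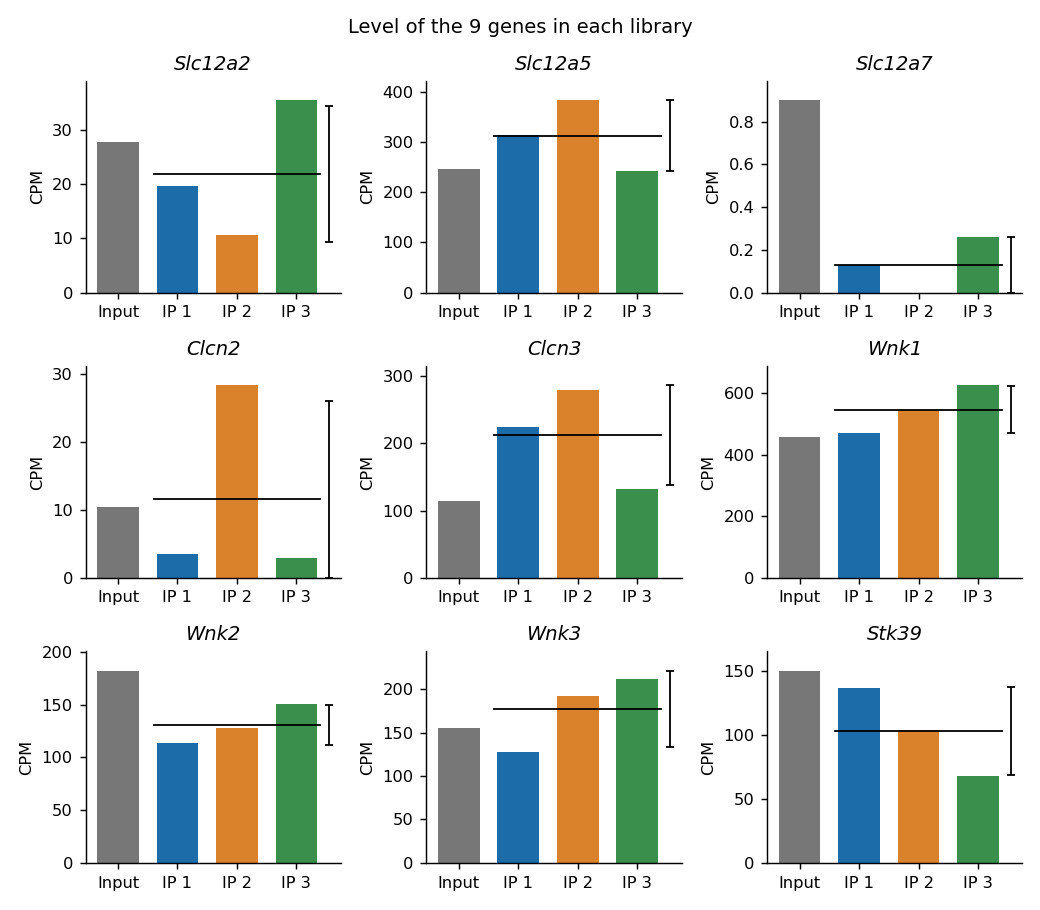
Level of each gene (y axis, CPM from 0, a scale of its own in each panel) in the Input and in IP 1, 2 and 3; the horizontal line is the mean and the bar at the right the SD of the 3 IP libraries, drawn no lower than 0. Clcn2 reaches 28.3 CPM in IP 2 and stays under 4 CPM in the other IP libraries, whereas Wnk1 and Wnk2 vary little among the 3.

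Slc12a5, the gene of KCC2 (Entrez 57138, chromosome 2, 164960802 to 164999731 in GRCm38), was abundant in every library. It was at 247 CPM in the tissue RNA, against 313, 383 and 242 CPM in IP 1, 2 and 3. IP 1 and IP 2 were above the Input and IP 3 was just below it, so the groups overlapped. The IP mean was 313 ± 70.2 CPM (SD, n = 3), and the fitted log2 fold was 0.34 ± 0.42 (SE). Its 95% interval ran from 0.69-fold to 2.34-fold of the Input, while Gad2, the gene of the GABA-synthesizing enzyme GAD65, measured by the same fit, had a log2 fold of 2.38 ± 0.39. A rise as large as that of Gad2 lay outside this interval.

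Slc12a2, the gene of NKCC1 (Entrez 20496, chromosome 18, 57878678 to 57946821), was much scarcer. It was at 27.8 CPM in the tissue RNA, against 19.7, 10.7 and 35.4 CPM in IP 1, 2 and 3, from 464, 451, 100 and 411 counts. IP 1 and IP 2 were below the Input and IP 3 above it. These differences among the IP libraries were larger than counting error: the exact Poisson 95% intervals, which cover counting error only, were 17.9 to 21.6, 8.70 to 13.0 and 32.1 to 39.0 CPM. Over IP the mean was 21.9 ± 12.5 CPM (SD, n = 3), and the fitted log2 fold was -0.34 ± 0.95 (SE), with a 95% interval from 0.199-fold to 3.12-fold. A change of 3-fold in either direction lay within this interval for NKCC1.

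NKCC1 is also strongly expressed in choroid plexus, so markers of choroid plexus and ependyma were summed for each library. Their 8 markers came to 9.65 CPM in the tissue RNA, against 2.75, 0.107 and 43.3 CPM in IP 1, 2 and 3, which is the order of Slc12a2 among the IP libraries. The sum in IP 3 came from Kl (33.2 CPM) and Foxj1 (10.1 CPM). Folr1 and Kcnj13 did not share this order, with 25 and 26 counts in IP 1 and 0 in IP 2 and IP 3. The defining choroid plexus gene Ttr had 0 counts in IP 3, and Clic6, Ccdc153 and Tmem212 had 0 in all 3 IP libraries. Other marker lists had other orders. The endothelial (158, 517 and 207 CPM) and astrocyte sums (1684, 2847 and 1822 CPM) were highest in IP 2, where Slc12a2 was lowest. The microglial (37.1 CPM) and meningeal fibroblast sums (80.4 CPM) were highest in IP 3. The part of any of these cells in the values of Slc12a2 was not tested.

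Slc12a7, which encodes the cotransporter KCC4 (Entrez 20499, chromosome 13, 73733094 to 73816754), was at the edge of detection. It had 15 counts in the Input (0.899 CPM) and 3, 0 and 3 counts in IP 1, 2 and 3, where 3 counts, the limit that a count of 0 allows, are 0.321 CPM in IP 2. All 3 IP libraries were at or under that limit. The pooled ratio of IP to Input was 0.152 (95% counting interval 0.0483 to 0.414), while the fit gave a log2 fold of -2.70 ± 3.21 (SE), too imprecise for a statement on its size. Because the gene was kept only through its Input level, it had to lie below the Input.

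The balance of NKCC1 to KCC2 was compared within each library as a ratio of counts per kilobase of the principal transcript, which does not depend on how libraries are scaled. KCC2 exceeded NKCC1 in all 4. The Slc12a5 level was 9.60 times that of Slc12a2 in the Input (95% counting interval 8.72 to 10.6) and 17.2, 38.7 and 7.40 times in IP 1, 2 and 3. As a log2 ratio of Slc12a2 to Slc12a5 this was -3.26 in the Input and -4.09 ± 1.19 (SD, n = 3) in IP. The Input lay inside the range of the IP libraries, from -5.27 in IP 2 to -2.89 in IP 3, so no shift in the balance was seen beyond the spread. With 1 Input no test of this ratio was made. Both genes contributed to the spread, since IP 2 had the lowest Slc12a2 and the highest Slc12a5 of the IP libraries, and IP 3 the reverse.

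**Figure D2:**
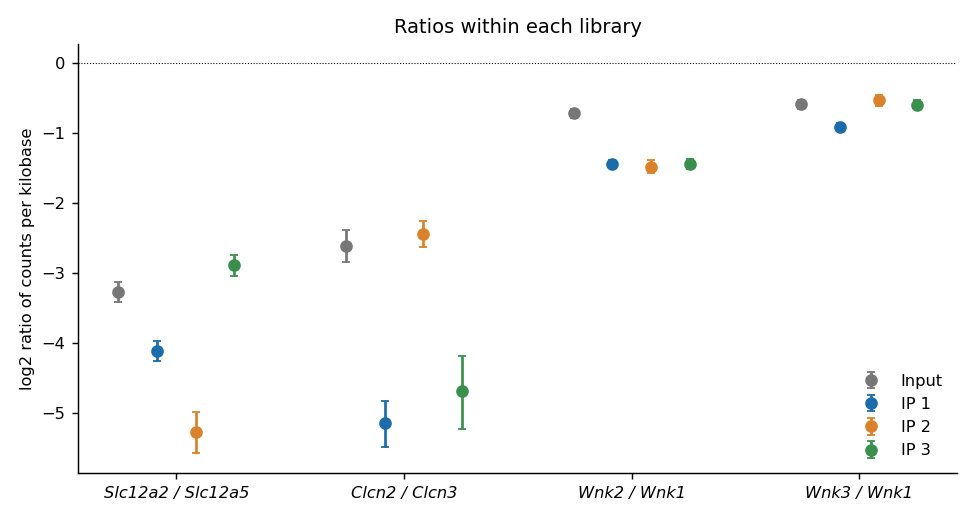
Log2 ratio of counts per kilobase of transcript (y axis) for 4 pairs of genes within each library; points are libraries and bars are exact 95% counting intervals. The Wnk2 to Wnk1 ratio is nearly the same in the 3 IP libraries, at -1.44, -1.47 and -1.44, and lower than in the Input (-0.71), whereas the Slc12a2 to Slc12a5 and Clcn2 to Clcn3 ratios spread over more than 2 log2 units among the IP libraries.

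Clcn3, the gene of ClC-3 (Entrez 12725, chromosome 8, 60910389 to 60983300), had the highest fitted fold of the 9 genes. It was at 115 CPM in the tissue RNA, against 224, 280 and 133 CPM in IP 1, 2 and 3. All 3 IP libraries were above the Input, IP 3 by little. Averaged over IP the level was 212 ± 74.3 CPM (SD, n = 3), and the fitted log2 fold was 0.89 ± 0.51 (SE, adjusted p = 1 and unadjusted p = 0.0982 by edgeR), with a 95% interval from 0.882-fold to 3.88-fold. Of all tested genes 65.1% had a smaller absolute log2 fold. Without IP 3 the log2 fold was 1.13 with an unadjusted p of 0.0476 and an adjusted p of 1, so the call did not change.

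Clcn2, the gene of the channel ClC-2 (Entrez 12724, chromosome 16, 20702964 to 20717746), had an IP mean set by a single library. It was at 10.4 CPM in the tissue RNA, against 3.49, 28.3 and 2.85 CPM in IP 1, 2 and 3, from 173, 80, 265 and 33 counts. IP 2 was above the Input and the others were below it, each outside the counting interval of the Input (8.89 to 12.04 CPM). The coefficient of variation over the IP libraries was 1.26, higher than in 97.2% of the 10553 genes with a mean of at least 5 CPM, whose median was 0.3997. The log2 fold of 0.15 ± 1.42 (SE) became -1.71 without IP 2, and its 95% interval ran from 0.141-fold to 8.73-fold. Of its exon bases 2.77% overlap genes of the opposite strand, Fam131a and Polr2h, and whether the counting told strands apart is not given in the sources used here.

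From lists of 8 to 10 markers per cell type, IP 2 had the highest sums of the 3 IP libraries for endothelial (517 CPM), mural (358 CPM), astrocyte (2847 CPM), oligodendrocyte (550 CPM) and excitatory neuron markers (6337 CPM), while the microglial sum was highest in IP 3 (37.1 CPM, beside 24.0 CPM in IP 2). A single gene carried much of several sums. Without the gene of the highest mean CPM in each list, IP 2 still had the highest endothelial (211 CPM, beside 108 in IP 1 and 104 in IP 3), astrocyte (391, beside 305 and 277) and excitatory sums, whereas the mural and oligodendrocyte sums were highest in IP 3. Among lists of other lengths, the GABAergic sum (12 markers) was lowest in IP 2, at 6409 CPM beside 9079 in IP 1 and 7287 in IP 3. It stayed lowest there without Vip. The oligodendrocyte precursor sum (6 markers) was highest in IP 2 (104 CPM), but without Pdgfra it was highest in IP 3. The meningeal fibroblast sum (7 markers) was highest in IP 3 (80.4 CPM). Of the 10 astrocyte markers 9 were lower in each IP library than in the Input, whose sum without Slc1a2 was 624 CPM. No endothelial, astrocyte or excitatory marker was at 0 in any IP library, while the mural marker Kcnj8 and the oligodendrocyte marker Opalin had 0 counts in IP 2 and IP 3. Slc12a5 and Clcn3 were likewise highest in IP 2 among the IP libraries. The part of these cells in the Clcn2, Slc12a5 and Clcn3 values was not tested.

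Among the WNK kinases, Wnk1 (Entrez 232341, chromosome 6, 119923969 to 120038672), the most widely expressed of the family, was at 458 CPM in the tissue RNA, against 470, 544 and 625 CPM in IP 1, 2 and 3. All 3 IP libraries were above the Input, IP 1 only slightly. The IP mean was 546 ± 77.2 CPM (SD, n = 3) and the log2 fold 0.26 ± 0.37 (SE), which was -0.02 with library totals. Gene-level counts do not separate the isoforms of Wnk1, which include forms without the kinase domain and neuron-specific exons.

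Wnk2 (Entrez 75607, chromosome 13, 49036303 to 49148014), a kinase known mainly from brain, was at 182 CPM in the tissue RNA, against 113, 128 and 151 CPM in IP 1, 2 and 3. All 3 IP libraries were below the Input, also with library totals, RLE and upper-quartile factors. In IP the mean was 131 ± 18.8 CPM (SD, n = 3) and the log2 fold -0.48 ± 0.47 (SE, adjusted p = 1), so the difference did not pass the test.

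Wnk3 (Entrez 279561, chromosome X, 151198078 to 151320152), a kinase of neurons that activates NKCC1 and inhibits KCC proteins in cell assays, was at 156 CPM in the tissue RNA, against 128, 193 and 212 CPM in IP 1, 2 and 3. IP 1 was below the Input and the other two were above it. The IP mean was 177 ± 44.1 CPM (SD, n = 3) and the log2 fold 0.19 ± 0.48 (SE), which changed sign when upper-quartile factors (-0.03) or library totals (-0.09) were used. A gene of the opposite strand overlaps 4.94% of its exon bases.

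Within libraries the WNK kinases kept different proportions. Per kilobase of transcript, the ratio of Wnk2 to Wnk1 was 0.610 in the Input (95% counting interval 0.585 to 0.637) and 0.369, 0.360 and 0.369 in IP 1, 2 and 3. The IP libraries lay close together, with a log2 ratio of -1.45 ± 0.02 (SD, n = 3), and the Input, at -0.71, lay outside their range. By contrast, the ratio of Wnk3 to Wnk1 was 0.667 for the Input, against 0.532, 0.694 and 0.664 for IP 1, 2 and 3, and the Input lay within that range. These WNK ratios were chosen after the values were seen, and with a lone Input the spread of the tissue RNA is unknown, so the lower Wnk2 to Wnk1 ratio is a description without a test.

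Stk39 (Entrez 53416, chromosome 2, 68210445 to 68472268) encodes SPAK, the kinase through which the WNK proteins reach the cotransporters. It was at 150 CPM in the tissue RNA, against 137, 104 and 68.2 CPM in IP 1, 2 and 3. All 3 IP libraries were below the Input, under each of the 4 scalings, with IP 3 the lowest. The IP mean was 103 ± 34.3 CPM (SD, n = 3) and the log2 fold -0.55 ± 0.52 (SE, adjusted p = 1), with a 95% interval from 0.322-fold to 1.46-fold. Oxsr1, the gene of the related kinase OSR1, was at 43.1 CPM in the tissue RNA, against 49.0, 67.6 and 49.0 CPM in IP. Per kilobase, Stk39 exceeded Oxsr1 by 4.59 times in the Input and by 3.67, 2.01 and 1.83 times in IP 1, 2 and 3, a ratio chosen after the values were seen and not tested.

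**Figure D3:**
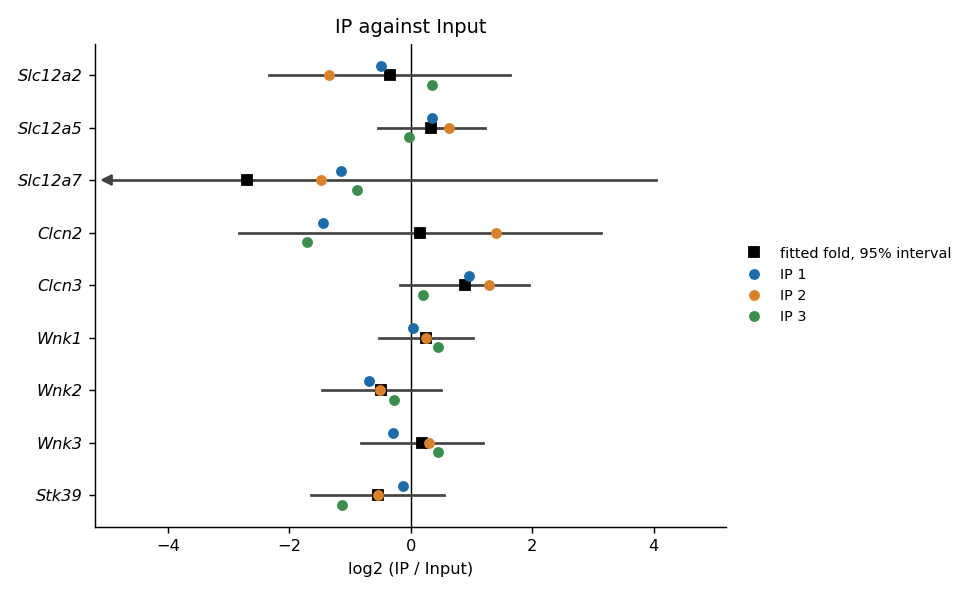
Log2 ratio of IP to Input (x axis) for each gene; black squares are the fitted edgeR folds with 95% intervals as lines (an arrow marks an interval that runs past the axis), and coloured points are the ratios of single IP libraries to the Input with 0.5 CPM added. Every interval includes 0, and those of Slc12a2, Slc12a7 and Clcn2 are the widest.

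The precision of the test differed among the genes. For 6 of the 9, Slc12a5, Clcn3, Wnk1, Wnk2, Wnk3 and Stk39, the 95% interval lay within a 4-fold change in either direction. For Slc12a2, Slc12a7 and Clcn2 it did not. The intervals rest on the spread of the 3 IP libraries, and the single Input is assumed to vary like them. As nothing states that the IP libraries came from separate animals, the spread among them may in part be technical.

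Compared as CPM per kilobase of the principal transcript in GENCODE M21, the levels in IP fell into 3 tiers. Slc12a5 (51.9 ± 11.6 CPM per kilobase, SD, n = 3), Wnk1 (51.7 ± 7.30), Clcn3 (37.3 ± 13.1), Wnk3 (32.9 ± 8.17), Stk39 (29.1 ± 9.69) and Wnk2 (18.9 ± 2.72) formed the upper tier, and neighbours in this order overlapped between libraries. Clcn2 (3.69 ± 4.65) and Slc12a2 (3.36 ± 1.92) came next and did not differ beyond their spread, while every library of Wnk2 was above every library of both. Slc12a7, at 0.0252 ± 0.0252, was the lowest. In the Input the order of the upper tier was Wnk1 (43.3), Stk39 (42.5), Slc12a5 (41.0), Wnk3 (28.9), Wnk2 (26.4) and Clcn3 (20.2), followed by Slc12a2 (4.27), Clcn2 (3.32) and Slc12a7 (0.175). These levels depend on the length used: with all annotated exon bases, Clcn3 was at 12.4 ± 4.35 CPM per kilobase in IP, below Wnk2 at 15.4 ± 2.21.

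Other genes of chloride transport and its control were taken from 4 lists. The count tables held 49 such genes, of which 40 were tested. Of these, edgeR, limma-voom and DESeq2 called 0, where edgeR called 0.410% of all tested genes higher and 0.0478% lower. An unadjusted p under 0.05 in edgeR was reached by 0 of the 40, against 4.43% of all genes. The median log2 fold of the 40 was 0.011. In 13 of the 40 all 3 IP libraries lay above the Input and in 11 all lay below it, patterns held by 19.7% and 24.1% of all genes. Among those 11, Slc26a4 and Best1 were kept through their Input level alone and had to lie below it. These sides, and those of the single genes below, are given with TMM scaling alone. Library totals moved the median log2 fold of all genes by -0.27. The 9 genes not tested had between 0 and 13 counts in the Input and at most 1 in any IP library, among them the kidney cotransporter genes Slc12a1 and Slc12a3.

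Among 4 tested cotransporter genes beside the 3 above the median log2 fold was -0.11. Slc12a4, the gene of KCC1, was at 0.660 CPM in the tissue RNA, against 0, 7.16 and 0.862 CPM in IP, again highest in IP 2.

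Among 8 tested ClC genes and partners (median log2 fold 0.37), the late endosomal exchanger gene Clcn6 was at 71.6 CPM in the tissue RNA, against 118, 124 and 120 CPM in IP 1, 2 and 3. Its 3 IP libraries were above the Input and close to each other, with a log2 fold of 0.75 ± 0.54 (SE, adjusted p = 1). Clcn4, which encodes the endosomal exchanger ClC-4, was at 70.3 CPM in the tissue RNA, against 87.9, 119 and 104 CPM in IP, with 11.5% of its exon bases shared with another gene. Both lay above the Input in all 3 IP libraries without passing the test. The other intracellular ClC genes differed in this: Clcn5 was lower in each IP library than in the Input, and Clcn7 lay on both sides of it.

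All 9 further genes of the WNK pathway were tested (median log2 fold 0.36). With TMM scaling 6 lay above the Input in all 3 IP libraries, a pattern held by 19.7% of all genes. Nedd4l, a ubiquitin ligase regulated by the kinase SGK1, was at 499 CPM in the tissue RNA, against 643, 935 and 875 CPM in IP 1, 2 and 3, a log2 fold of 0.71 ± 0.37 (SE, unadjusted p = 0.0714, adjusted p = 1 by edgeR). Cul3, the scaffold of the ubiquitin ligase that marks WNK kinases for breakdown, was at 261 CPM in the tissue RNA, against 521, 295 and 274 CPM in IP. With TMM scaling all 3 IP values of Cul3 were above the Input, IP 1 by the most.

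Of 19 tested genes of other chloride channels and bicarbonate transporters (median log2 fold -0.12), those with the highest mean CPM over the 4 libraries were Slc4a8 and Slc4a10, which encode sodium-coupled bicarbonate transporters of neurons. Slc4a8 was at 224 CPM in the tissue RNA, against 426, 409 and 289 CPM in IP 1, 2 and 3, a log2 fold of 0.74 ± 0.42 (SE, adjusted p = 1). Slc4a10 was at 234 CPM in the tissue RNA, against 253, 293 and 294 CPM in IP. With TMM scaling both lay above the Input in all 3 IP libraries without passing the test.

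**Figure D4:**
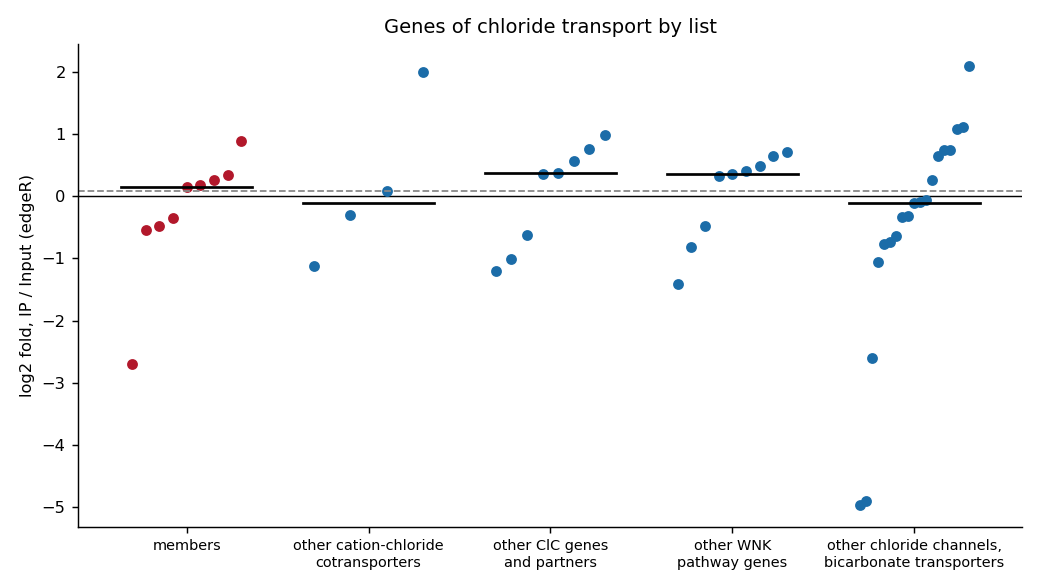
Fitted log2 fold of IP against Input (y axis) for the 9 genes (red) and for the tested genes of 4 further lists (blue), sorted within each list; black bars are list medians and the dashed line is the median of all tested genes (0.083). No point passed the threshold, and the 2 lowest points, Slc26a4 and Best1, had at most 4.86 CPM in any library.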

How the data were processed

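The deposited tables held raw counts of reads for each gene, 1 library per table, with Entrez identifiers and symbols per the file headers. STAR 2.0.0e, HTSeq and the build mm10 appear in the submitters' processing notes (no HTSeq version), while the table names held the word subread, so the counter was not settled. Annotation, strand and treatment of multiply mapped reads are not given in the sources used here. The 9 rows without a symbol took at most 0.0221% of a library. No library was a copy of another (chi-square per degree of freedom at least 75.4 for each pair).

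Counts were analysed in R 4.3.3. filterByExpr of edgeR 4.0.16 (minimum count 10) kept 14636 genes, and TMM factors were 1.15 for the Input and 0.974, 0.932 and 0.955 for IP 1, 2 and 3. The difference between IP and Input was tested by quasi-likelihood, two-sided, with Benjamini-Hochberg adjustment over all genes kept and a threshold of 0.05. SE is the absolute log2 fold over the root of the F statistic, and 95% intervals use the total degrees of freedom (2 residual and a prior of 17.0). The test was also run on simulated counts, but the outcome is not given here and no result above rests on it. One count was worth 0.0600 CPM in the Input and 0.0436 to 0.107 CPM in IP. Positions, lengths and exon overlaps came from GENCODE M21 (GRCm38, the assembly called mm10). Alternatives were DESeq2 1.42.0, limma-voom (limma 3.58.1), other scalings, other low-count filters, a robust prior, and leaving out each IP library.

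The 9 genes, the lists and the tests were chosen with earlier results of these data known. All 9 genes were named, and of each further list the called genes or, with none, the 2 with the highest mean CPM over the 4 libraries, of which 1 is not reported here. A rule to name the 3 genes with the most similar ratios to the Input took Slc12a7 alone, whose ratios are set by the 0.5 CPM added, so its genes are not given. Outside these rules, Oxsr1, Clcn5, Clcn7, Slc12a1, Slc12a3, Slc26a4 and Best1 were named after their values were seen, and markers were named to describe the libraries.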

Additional observations from a re-analysis of the deposited data

How the results depend on the processing

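In all 11 alternatives 0 of the 9 genes and 0 of the 40 other genes of chloride transport were called. Of 98 fitted folds of the 9 genes under these alternatives 91 kept their direction and 7 reversed. Clcn2 turned from a log2 fold of 0.15 to -0.90 with limma-voom, -0.084 with upper-quartile factors, -0.14 with library totals and -1.71 without IP 2, with a range of -1.71 to 0.61 when an IP library was left out. Wnk1 turned to -0.020 with library totals, and Wnk3 to -0.032 with upper-quartile factors and -0.091 with library totals. Library totals moved the median of all genes by -0.27, upper-quartile factors by -0.22 and limma-voom by -0.23, so folds this close to 0 have no settled sign. With no low-count filter the median moved by -0.11, but over 17642 genes in place of 14636, and the 9 genes kept their direction. Slc12a7 had no value with a mean of at least 5 CPM. Over all genes the count of calls was 67, and it became 182 with DESeq2, 108 with no low-count filter and 90 to 210 when an IP library was left out (210 without IP 1 and 105 without IP 2); the cause was not tested. These calls were 60 higher and 7 lower, but 51 and 15 with upper-quartile factors, 50 and 15 with library totals and 37 and 14 with limma-voom. The mean log2 ratio of Slc12a2 to Slc12a5 in IP, -4.09, was -3.98 without division by length, -4.53 with all annotated exon bases (chosen after seeing the data) and -4.69 to -3.50 when an IP library was left out. No paired analysis was possible because there was only 1 Input library. Slc12a7 had at most 3 counts in an IP library, and Clcn2 had a coefficient of variation of 1.26 over the IP libraries. What sets the width of their fitted intervals was not tested.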
